A study of Mus musculus with 8 samples.

Results

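The genes described here are interferon-stimulated genes, named by symbol in a list of 35. In the deposited liver table of 22183 mouse genes, 33 of the 35 were measured; Mx1 and Mx2 are not analysed here. All 33 passed the filter on low counts that left 12722 genes for testing. The list was divided by role into RNA sensors with Zbp1 (4 measured genes), the OAS family (5), the IFIT family (3), viperin and its neighbour Cmpk2 (2), the ISG15 system (2), transcription factors (4), the IRG and GBP GTPases (7) and other effectors (6).

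Livers of C57 mice, a common laboratory strain, were profiled by mRNA sequencing in 8 libraries of 3 groups. APAP_MSC (n = 3) received 400 mg/kg of APAP intraperitoneally, and 4 hours later an injection of MSCs into a tail vein. APAP is commonly short for acetaminophen and MSC for mesenchymal stromal cell. APAP_PBS (n = 3) received the same dose of APAP, with PBS, a salt solution, in its group name. CTRL (n = 2) is labelled as control, and its treatment text is the same as that of the other groups, so only the label marks it as liver that had no APAP. Livers of the APAP groups were taken at 24 hours. No allele, sex or age that differed between the groups was used, the source of the MSCs is not described here, and the labels do not say that each library is 1 animal. The p-values below therefore measure the spread between these libraries, which may be partly technical.

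Interferons are secreted proteins that bind cell-surface receptors, activate JAK kinases and, through them, STAT transcription factors. Type I interferons act mainly through a complex that holds Stat2 and Irf9, on an element called ISRE, and interferon gamma acts on an element called GAS. The induced genes sense viral RNA, block steps of viral replication, restrict intracellular parasites and also damp the signal itself. Acetaminophen at high dose kills hepatocytes, the main cells of the liver, and the injury is sterile, with no microbe as its starting point.

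Library totals lay between 16261191 and 24516470 estimated counts, and 3 counts, the most that a gene with a count of 0 could plausibly hold, lay between 0.117 and 0.214 CPM. Levels are given as TMM-normalised CPM, counts scaled to library size and composition, and, where genes are compared with each other, as FPKM, which also divides by gene length. The summed hepatocyte markers stood at 76281 to 85185 CPM in APAP_MSC, 69527 to 82878 CPM in APAP_PBS and 91450 to 107627 CPM in CTRL, in keeping with the liver label. No 2 libraries of a group were alike enough to be 1 library deposited more than once. The leading principal component held 48.2% of the variance. On it APAP_MSC replicate 2 stood apart from its group, at 9.41, against -11.3 and -20.4 for APAP_MSC replicates 1 and 3. The APAP_PBS libraries were at -27.0, -17.4 and -16.8 and the CTRL libraries at 41.2 and 42.3, so APAP_MSC replicate 2 was the nearest to CTRL of the 6 APAP libraries. Results that rest on it are given with and without it.

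The promoters of the genes that the results turn on are shown first, because ISRE and GAS are the elements through which interferons act. They are RefSeq sequences of build GRCm38.p6, from 250 bases before to 50 after the start, 5′ to 3′ on the gene's strand, with matches to the ISRE core, GAAA, any 2 bases and GAAA on either strand, in capitals. Irgm2, Igtp, Ifit3 and Bst2 were called in a comparison with CTRL; Ifit1 and Isg15 are classical members that were not.
Irgm2 (chr11:58214727-58215026, plus strand): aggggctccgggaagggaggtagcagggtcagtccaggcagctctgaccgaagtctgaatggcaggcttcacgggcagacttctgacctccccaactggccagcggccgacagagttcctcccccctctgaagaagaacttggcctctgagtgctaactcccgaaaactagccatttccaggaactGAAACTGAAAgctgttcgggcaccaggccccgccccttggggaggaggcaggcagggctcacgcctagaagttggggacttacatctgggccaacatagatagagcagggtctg
Igtp (chr11:58199306-58199605, plus strand): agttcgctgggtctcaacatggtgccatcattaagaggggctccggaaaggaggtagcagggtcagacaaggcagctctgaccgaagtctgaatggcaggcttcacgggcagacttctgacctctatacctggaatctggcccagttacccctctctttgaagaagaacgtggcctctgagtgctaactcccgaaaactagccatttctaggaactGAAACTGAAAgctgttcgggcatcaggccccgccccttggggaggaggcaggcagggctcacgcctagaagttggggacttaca
Ifit3 (chr19:34583279-34583578, plus strand): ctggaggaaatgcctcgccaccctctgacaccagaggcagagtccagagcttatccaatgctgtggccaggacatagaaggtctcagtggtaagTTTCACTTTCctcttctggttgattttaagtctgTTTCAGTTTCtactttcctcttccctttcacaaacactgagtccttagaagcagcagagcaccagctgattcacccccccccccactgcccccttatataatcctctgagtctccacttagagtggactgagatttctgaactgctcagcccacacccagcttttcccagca
Bst2 (chr8:71537423-71537722, minus strand): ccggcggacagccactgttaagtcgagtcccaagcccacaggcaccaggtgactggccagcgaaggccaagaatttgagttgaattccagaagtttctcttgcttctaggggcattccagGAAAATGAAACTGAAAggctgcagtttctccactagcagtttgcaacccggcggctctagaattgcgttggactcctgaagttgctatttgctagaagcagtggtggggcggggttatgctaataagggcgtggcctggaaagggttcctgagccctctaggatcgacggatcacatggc
Ifit1 (chr19:34640639-34640938, plus strand): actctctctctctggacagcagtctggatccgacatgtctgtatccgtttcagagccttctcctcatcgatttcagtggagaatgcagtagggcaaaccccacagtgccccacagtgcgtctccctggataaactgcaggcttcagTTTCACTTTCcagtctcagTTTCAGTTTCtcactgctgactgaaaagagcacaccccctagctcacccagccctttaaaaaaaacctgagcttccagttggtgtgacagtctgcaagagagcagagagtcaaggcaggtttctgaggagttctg
Isg15 (chr4:156200769-156201068, minus strand): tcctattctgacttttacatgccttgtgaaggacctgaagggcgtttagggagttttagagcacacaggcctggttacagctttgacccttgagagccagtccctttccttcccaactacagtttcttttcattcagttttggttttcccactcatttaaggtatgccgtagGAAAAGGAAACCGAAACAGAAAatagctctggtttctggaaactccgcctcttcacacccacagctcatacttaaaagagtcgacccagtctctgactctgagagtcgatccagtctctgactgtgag
In Irgm2 the match began 64 bases before the start and in Igtp 34 bases before it. Ifit3 had matches beginning 156 and 122 bases before the start, and Ifit1 104 and 85 bases before it. The matches of Bst2, which began 130 and 124 bases before the start, overlap each other, and so do the 3 of Isg15, which began 78, 72 and 66 bases before it.

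Over the list, 27 measured genes had a promoter window, and Dhx58, Zbp1, Oas2, Usp18, Ifi27 and Parp14 had none. The ISRE core stood in a window of 16 of the 27 genes (59.3%), against 1079 of all 27025 genes with a window (3.99%); over windows, 1131 of all 32851 held it (3.44%). The GAS letters, TTC, any 3 bases and GAA, stood in 8 of the 27 genes (29.6%), against 2582 of all genes (9.55%) and 2726 of all windows (8.30%). In the promoters shown above, GAS matches are not put in capitals, save the end of that of Bst2, which overlaps its first ISRE match. The GAS matches began 75 bases before the start in Irgm2, 45 in Igtp and 136 in Bst2, and Ifit3, Ifit1 and Isg15 held none. The windows of both genes called higher that have one, and of both genes called lower, held the ISRE core, and so did those of 12 of the 23 genes that have a window and were never called. A match is a string of letters and was not tested for binding. The Igtp and Irgm2 windows were 91.1% identical over 271 aligned positions, and their longest identical run was 61 bases.

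By length-scaled level, the list spanned a wide range in these livers. The highest mean FPKM over the 8 libraries belonged to Bst2 (60.5 FPKM), which encodes tetherin, a membrane protein that holds budding viruses on the cell surface. Next came Ifi27 (36.0 FPKM), a small mitochondrial membrane protein, and Irgm1 (26.5 FPKM), an immunity-related GTPase. Ifi35, Irgm2, Irf7, Ifi47, Igtp and Irf1 followed at mean levels between 11.7 and 14.3 FPKM. At the low end stood Oas2 (0.283 FPKM), Oas3 (0.214 FPKM) and Ifit2 (0.837 FPKM). Bst2 was above Ifi27 and Ifi27 above Irgm1 in each of the 8 libraries, while the genes from Ifi35 to Irf1 had overlapping ranges.

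**Figure D1:**
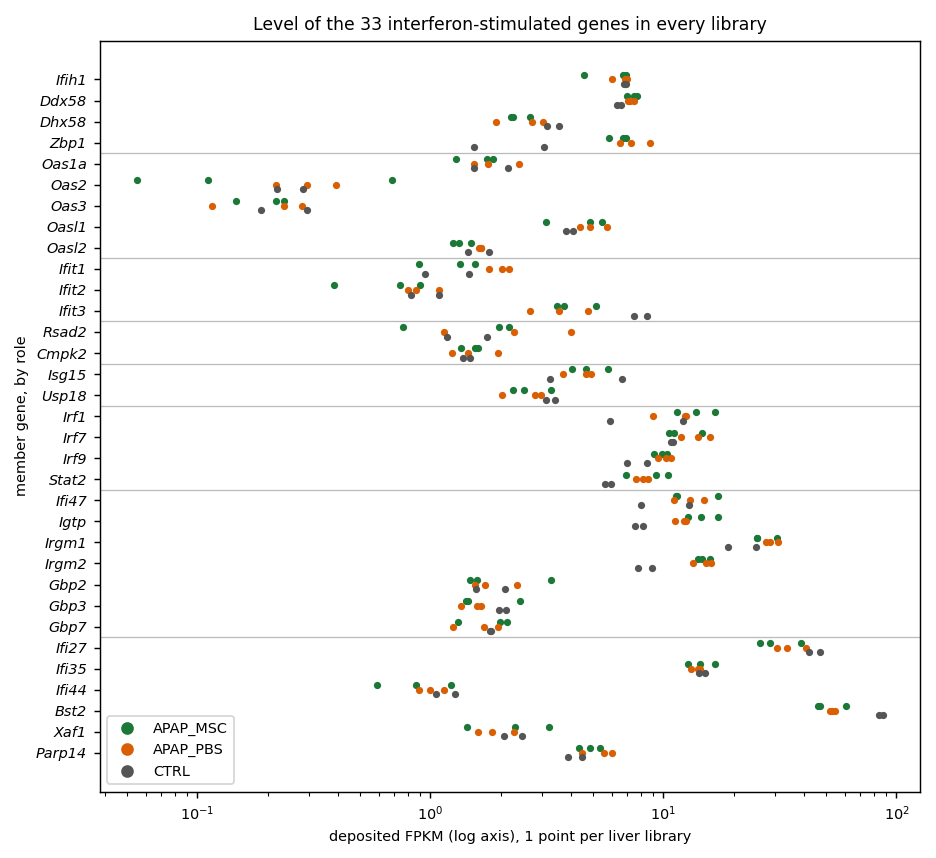
Deposited FPKM (log axis) of the 33 measured interferon-stimulated genes, by role, with 1 point per liver library for APAP_MSC (green), APAP_PBS (orange) and CTRL (grey). Bst2, with a mean of 60.5 FPKM, is the rightmost gene and Oas3, with a mean of 0.214 FPKM, is among the leftmost; for many genes the points of the 3 groups overlap.

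The interferons themselves were at the edge of detection. Of 11 interferon genes in the table, 9 had 0 counts in every library, Ifnb1 among them. Ifng, which encodes interferon gamma, had 5 counts in all, spread over 4 libraries with at most 2 in any one, and Ifnk had 4 counts. None passed the filter, so no interferon was tested. Counts of this size cannot show a difference between groups at this depth.

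The first question was whether APAP changed the interferon-stimulated genes as a group, judged by APAP_PBS against CTRL. Most did not pass the test. By edgeR's quasi-likelihood test at a Benjamini-Hochberg adjusted p under 0.05, 2 of the 33 genes were higher in APAP_PBS (Zbp1 and Irgm2), where 4.29% of all tested genes were higher. Another 2 of the 33 were lower (Bst2 and Ifit3), where 5.97% of all tested genes were lower. In either direction that is 12.1% of the list, against 10.3% of all genes, a share near the background. At an unadjusted p under 0.05 there were 8 of 33, against 26.8% of all genes. The log2 fold changes ran from -1.36 to 1.42, with 13 above and 20 below 0 and a median of -0.21, beside 0.031 over all genes. With library size alone as the scaling, the median over all genes moved to 0.27 and that of the list to 0.038, so the list stayed below the other genes by about the same amount while its own sign turned. Under that scaling 81.4% of all called genes were higher, against 41.8% with TMM, and 3 genes of the list were higher and 2 lower. The distance from the other genes depended on the control libraries. Without CTRL replicate 1 the median of the list was -0.029, beside 0.047 over all genes. Without CTRL replicate 2 it was -0.23, beside 0.044 over all genes. Without CTRL replicate 2, 0 genes of the list were higher and 2 lower, without APAP_PBS replicate 1 or 3 the counts were 1 and 2, and without CTRL replicate 1 they were 2 and 1. The groups did not overlap for 5 genes on the higher side and 12 on the lower side, where 25% and 22.6% of all genes did so. In bulk tissue, a change in the number of cells that express a gene and a change in its RNA per cell cannot be told apart.

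In APAP_MSC against CTRL, 3 of the 33 genes were higher (Zbp1, Igtp and Irgm2), where 2.52% of all tested genes were higher, and 2 were lower (Bst2 and Ifit3), where 3.32% of all genes were lower. That is 15.2% of the list in either direction, against 5.84% of all genes. At an unadjusted p under 0.05 there were 8 of 33, against 21.7% of all genes. The log2 fold changes ran from -1.13 to 1.25, with 11 above and 22 below 0 and a median of -0.11, beside 0.01 over all genes. Without APAP_MSC replicate 2 the median was -0.35, and 4 genes were higher and 3 lower. The median of the list was -0.0048 without CTRL replicate 1, beside 0.035 over all genes. It was -0.30 without CTRL replicate 2, beside 0.030 over all genes. Without CTRL replicate 2 no gene was higher and 1 was lower, and without CTRL replicate 1 the counts were 2 and 0. Without APAP_MSC replicate 1 they were 2 and 1, without APAP_MSC replicate 3 they were 3 and 1, and without APAP_PBS replicate 3 they were 2 and 2. The groups did not overlap for 4 genes on the higher side and 6 on the lower side, where 17.8% and 17.7% of all genes did so. With library size alone, 76.2% of all called genes were higher, against 43.2% with TMM. The comparisons with CTRL share the same 2 control libraries, so their similar calls are not separate evidence.

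**Figure D2:**
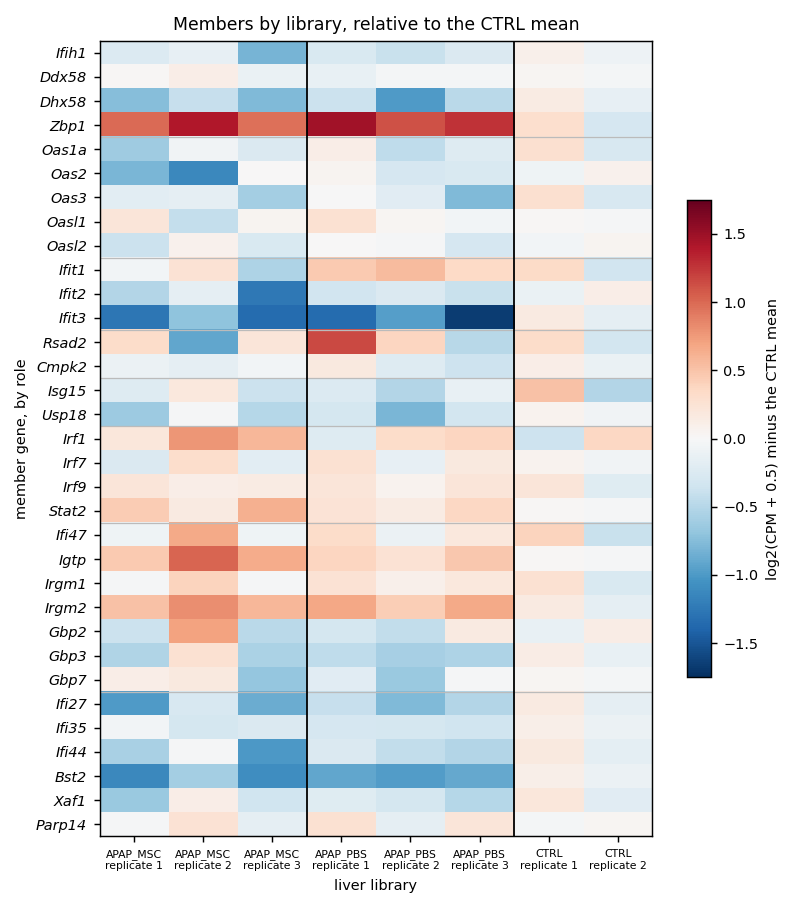
Log2(CPM + 0.5) of each of the 33 genes in each of the 8 libraries minus the CTRL mean, from -1.66 (blue) to 1.47 (red), with genes ordered by role and black lines between APAP_MSC, APAP_PBS and CTRL. The Zbp1 row is red in all 6 APAP libraries and the Ifit3 and Bst2 rows are blue in all 6, while most rows are pale or mixed.

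Among the RNA sensors, Zbp1 stood alone. Zbp1 recognises nucleic acids in the left-handed Z form and can start necroptosis, an inflammatory cell death. It stood at 5.95, 8.10 and 5.84 CPM in APAP_MSC, 8.54, 6.54 and 7.31 CPM in APAP_PBS and 3.49 and 2.16 CPM in CTRL. Every APAP library was above both CTRL libraries. The log2 fold change was 1.42 ± 0.26 (SE) in APAP_PBS against CTRL (adjusted p = 0.00768) and 1.25 ± 0.26 in APAP_MSC against CTRL (adjusted p = 0.0208). Both calls were lost without CTRL replicate 2, at 1.10 (adjusted p = 0.0743) for APAP_PBS and 0.94 (adjusted p = 0.136) for APAP_MSC, and the APAP_MSC call also with only the groups compared in the fit (1.25, adjusted p = 0.0634). In GRCm38 the gene lies at chr2:173206612-173218923 on the minus strand.

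The sensors of viral RNA did not pass the test in any comparison. Ddx58, which encodes RIG-I, had 28.2, 30.2 and 25.7 CPM in APAP_MSC, 25.5, 27.1 and 27.1 CPM in APAP_PBS and 28.6 and 27.2 CPM in CTRL. All 3 APAP_PBS libraries were just below both CTRL libraries and the APAP_MSC libraries overlapped them, and its log2 fold change of -0.07 ± 0.12 in APAP_PBS against CTRL (adjusted p = 0.764) was among the tightest of the list. Ifih1, which encodes MDA5, had 28.8, 30.8 and 19.1 CPM in APAP_MSC, 28.3, 25.8 and 28.6 CPM in APAP_PBS and 36.4 and 32.0 CPM in CTRL. All 6 APAP libraries were below both CTRL libraries, with log2 fold changes of -0.31 ± 0.18 in APAP_PBS (adjusted p = 0.309) and -0.38 ± 0.18 in APAP_MSC (adjusted p = 0.245) against CTRL. Dhx58, the third RIG-I-like receptor, was at -0.64 ± 0.23 in APAP_PBS (adjusted p = 0.0999) and -0.68 ± 0.23 in APAP_MSC (adjusted p = 0.108) against CTRL. Its antisense gene overlaps it, and without a stated strand the reads of both cannot be told apart.

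The immunity-related GTPases, which attack the membranes around intracellular parasites and are induced mainly by interferon gamma, held the other higher calls. Irgm2 had 46.5, 57.4 and 48.8 CPM in APAP_MSC, 51.9, 43.7 and 51.5 CPM in APAP_PBS and 36.3 and 28.9 CPM in CTRL. All APAP libraries were above both CTRL libraries, by 0.59 ± 0.14 (adjusted p = 0.0253) in APAP_PBS and 0.65 ± 0.14 (adjusted p = 0.0262) in APAP_MSC on the log2 scale. The APAP_PBS call was lost without CTRL replicate 2 (0.44, adjusted p = 0.178), without APAP_PBS replicate 1 (0.55, adjusted p = 0.0905) or without APAP_PBS replicate 3 (0.56, adjusted p = 0.0821). The APAP_MSC call was lost without CTRL replicate 2 (0.50, adjusted p = 0.157), without APAP_MSC replicate 1 (0.71, adjusted p = 0.0517) or without APAP_PBS replicate 3 (0.65, adjusted p = 0.0507), and with only the groups compared (0.65, adjusted p = 0.0779).

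Igtp, the neighbour of Irgm2, had 24.4, 36.1 and 27.8 CPM in APAP_MSC, 23.0, 20.998 and 24.4 CPM in APAP_PBS and 17.7 and 17.3 CPM in CTRL. The groups did not overlap in either comparison with CTRL. It was higher in APAP_MSC than in CTRL by 0.75 ± 0.16 (adjusted p = 0.0256), a call lost without CTRL replicate 1 (0.77, adjusted p = 0.115) or CTRL replicate 2 (0.75, adjusted p = 0.116), and with only the groups compared (0.75, adjusted p = 0.0774). In APAP_PBS against CTRL the log2 fold change was 0.38 ± 0.16 (adjusted p = 0.168), which passed with library size alone (0.61, adjusted p = 0.0211). In GENCODE M21 Igtp (chr11:58199556-58207591) lies within Irgm2 (chr11:58199618-58222782) for nearly all of its length, on the same strand. The RefSeq start used for the Irgm2 promoter lies farther along, in chr11:58214727-58215026, past the end of Igtp. Igtp and Irgm2 both had estimated counts that were not whole in 5 libraries, so reads were shared out between genes there. With the counts of both summed, the log2 fold change was 0.53 (adjusted p = 0.0401) in APAP_PBS and 0.69 (adjusted p = 0.0202) in APAP_MSC against CTRL.

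The other GTPases did not pass the test. Irgm1 had 50.9, 67.4 and 50.8 CPM in APAP_MSC, 61.6, 54.6 and 58.9 CPM in APAP_PBS and 61.8 and 42.9 CPM in CTRL. The 2 CTRL libraries enclosed 5 of its 6 APAP values, and its log2 fold change was 0.16 ± 0.17 in APAP_PBS (adjusted p = 0.605) and 0.11 ± 0.17 in APAP_MSC (adjusted p = 0.769) against CTRL. For Ifi47, Gbp2, Gbp3 and Gbp7, the log2 fold changes against CTRL ran from -0.58 to 0.10 in APAP_PBS and from -0.23 to 0.18 in APAP_MSC. The guanylate-binding proteins, larger relatives of the IRGs, thus held no call, and Gbp2 changed sign with the scaling.

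Bst2 was the most abundant gene of the list and was lower in both APAP groups. It had 34.5, 50.2 and 35.5 CPM in APAP_MSC, 40.2, 38.2 and 40.5 CPM in APAP_PBS and 81.3 and 71.1 CPM in CTRL. No APAP library came near the CTRL libraries, and the fold change was 0.520 in APAP_PBS and 0.527 in APAP_MSC against CTRL. On the log2 scale this was -0.94 ± 0.16 (adjusted p = 0.00476) for APAP_PBS and -0.93 ± 0.15 (adjusted p = 0.00734) for APAP_MSC. The APAP_MSC call was lost without CTRL replicate 1 (-0.82, adjusted p = 0.063), and the APAP_PBS call was kept in all 17 alternatives, at adjusted p-values of up to 0.0382. Bst2 is also a marker of plasmacytoid dendritic cells in mice. Siglech, a more selective marker of those cells, was at 0.0583 to 0.234 CPM in APAP_MSC, 0.293 to 0.373 CPM in APAP_PBS and 0.188 to 0.214 CPM in CTRL, near the level of 3 counts, and was not tested. Tcf4, the other tested marker, was at 0.10 ± 0.19 (adjusted p = 0.774) in APAP_PBS and 0.08 ± 0.19 (adjusted p = 0.857) in APAP_MSC against CTRL. Of the 5 markers of these cells, Siglech, Ccr9 and Klk1 stayed under 0.42 CPM in every library, and none was at 0 in all. Their part in the result was not tested.

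The remaining effectors did not pass the test. Ifi27 had 21.5, 35.5 and 23.4 CPM in APAP_MSC, 32.4, 24.9 and 30.0 CPM in APAP_PBS and 48.2 and 38.5 CPM in CTRL. Every APAP library was below both CTRL libraries, and the log2 fold change was -0.57 ± 0.21 (adjusted p = 0.114) in APAP_PBS and -0.69 ± 0.21 (adjusted p = 0.0848) in APAP_MSC. Without APAP_MSC replicate 2, Ifi27 passed in both, at -0.57 (adjusted p = 0.0237) for APAP_PBS and -0.94 (adjusted p = 0.00435) for APAP_MSC. It also passed for APAP_PBS with only the groups compared (-0.59, adjusted p = 0.0281). For APAP_MSC it passed by DESeq2's Wald test (-0.71, adjusted p = 0.0237). Ifi35, Ifi44, Xaf1, which promotes cell death, and Parp14, an ADP-ribosyltransferase, had log2 fold changes from -0.45 to 0.12 in APAP_PBS and from -0.56 to 0.03 in APAP_MSC against CTRL.

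Within the IFIT family, whose proteins bind viral RNA that lacks the cap marks of the host, 1 of the 3 genes passed the test. Ifit3 had 6.18, 9.35 and 5.80 CPM in APAP_MSC, 5.82, 7.70 and 4.56 CPM in APAP_PBS and 17.3 and 13.9 CPM in CTRL. All APAP libraries were below both CTRL libraries, and Ifit3 was lower, at -1.36 ± 0.25 (adjusted p = 0.00817) in APAP_PBS and -1.13 ± 0.25 (adjusted p = 0.0261) in APAP_MSC on the log2 scale. The APAP_PBS call was lost without CTRL replicate 1 (-1.19, adjusted p = 0.06). The APAP_MSC call was lost without CTRL replicate 1 (-0.96, adjusted p = 0.169), CTRL replicate 2 (-1.27, adjusted p = 0.0669), APAP_MSC replicate 1 (-1.04, adjusted p = 0.0941) or APAP_MSC replicate 3 (-0.99, adjusted p = 0.0831). Ifit3 has a near-identical copy, Ifit3b, and its estimated counts were not whole in all 8 libraries. The sum of both stood at 7.23, 10.8 and 6.66 CPM in APAP_MSC, 7.52, 9.44 and 5.62 CPM in APAP_PBS and 21.1 and 16.2 CPM in CTRL. The summed pair was also lower, at -1.30 (adjusted p = 0.0107) in APAP_PBS and -1.18 (adjusted p = 0.0243) in APAP_MSC.

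Ifit1, the best known of the family, had 3.38, 4.29 and 2.26 CPM in APAP_MSC, 5.03, 5.38 and 4.62 CPM in APAP_PBS and 4.56 and 2.68 CPM in CTRL. It was above both CTRL libraries in every APAP_PBS library and overlapped CTRL in APAP_MSC, with log2 fold changes of 0.49 ± 0.31 in APAP_PBS (adjusted p = 0.349) and -0.11 ± 0.31 in APAP_MSC (adjusted p = 0.88) against CTRL. Ifit2 was at -0.38 ± 0.33 in APAP_PBS (adjusted p = 0.523) and -0.68 ± 0.34 in APAP_MSC (adjusted p = 0.267). Ifit1 and Ifit3 each hold a pair of ISRE matches in the promoters shown above, and of these genes Ifit3 was called and Ifit1 was not.

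**Figure D3:**
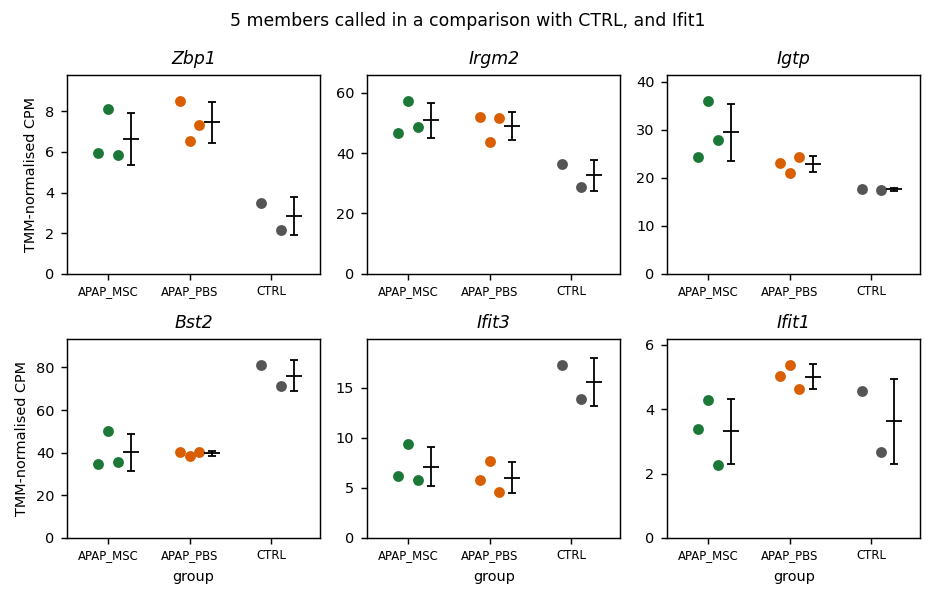
TMM-normalised CPM of Zbp1, Irgm2, Igtp, Bst2, Ifit3 and Ifit1 in each library (points), with the mean ± SD beside each group, for APAP_MSC (n = 3), APAP_PBS (n = 3) and CTRL (n = 2). Zbp1, Irgm2 and Igtp lie above both CTRL libraries in all 6 APAP libraries, Bst2 and Ifit3 lie below both, and Ifit1 is the gene whose APAP_MSC libraries all lie below its APAP_PBS libraries.

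The OAS enzymes, which make a short oligoadenylate that switches on RNase L, held no call. Oasl1, a family member without that enzyme activity, had 11.3, 7.11 and 10.005 CPM in APAP_MSC, 11.7, 9.90 and 9.30 CPM in APAP_PBS and 9.76 and 9.50 CPM in CTRL. Its groups overlapped, with log2 fold changes of 0.10 ± 0.20 (adjusted p = 0.805) in APAP_PBS and -0.03 ± 0.20 (adjusted p = 0.961) in APAP_MSC against CTRL. Oas1a had 2.33, 3.67 and 3.15 CPM in APAP_MSC, 4.24, 2.69 and 3.22 CPM in APAP_PBS and 4.77 and 3.10 CPM in CTRL. It has several near-identical neighbours, and its counts were not whole in all 8 libraries, so its level is uncertain. The 5 OAS genes ran from -0.88 to -0.03 on the log2 scale in APAP_MSC against CTRL, each with an adjusted p of at least 0.421, and Oasl1 was above 0 (0.17) with library size alone.

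Viperin and the ISG15 system, among the usual readouts of a type I response, also held no call. Rsad2, which encodes viperin, an enzyme that makes a chain-terminating nucleotide, had 7.76, 2.997 and 7.12 CPM in APAP_MSC, 14.1, 8.03 and 4.21 CPM in APAP_PBS and 7.76 and 4.75 CPM in CTRL. Relative to its level it was the gene with the widest spread within APAP_PBS, and its log2 fold change against CTRL was 0.51 ± 0.58 (adjusted p = 0.641) in APAP_PBS and -0.06 ± 0.58 (adjusted p = 0.974) in APAP_MSC. Cmpk2, its neighbour and a mitochondrial nucleotide kinase, had 4.72, 4.52 and 4.91 CPM in APAP_MSC, 5.82, 4.31 and 3.86 CPM in APAP_PBS and 5.55 and 4.70 CPM in CTRL. Its groups overlapped in every comparison.

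Isg15, a ubiquitin-like protein attached to other proteins, had 3.09, 4.25 and 2.73 CPM in APAP_MSC, 3.05, 2.44 and 3.33 CPM in APAP_PBS and 5.48 and 2.44 CPM in CTRL. The 2 CTRL libraries lay farther apart than all 6 APAP libraries did, and the log2 fold change was -0.41 ± 0.35 (adjusted p = 0.495) in APAP_PBS and -0.22 ± 0.34 (adjusted p = 0.778) in APAP_MSC. Usp18, which removes Isg15 and also blocks the type I receptor, had 3.79, 6.08 and 4.24 CPM in APAP_MSC, 4.92, 3.35 and 4.86 CPM in APAP_PBS and 6.48 and 5.92 CPM in CTRL. All 3 APAP_PBS libraries were below both CTRL libraries, at -0.51 ± 0.26 (adjusted p = 0.231).

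The transcription factors that carry or amplify the signal were not called either. Irf7, which drives the later wave of type I interferon genes, had 19.5, 29.2 and 20.5 CPM in APAP_MSC, 28.1, 21.1 and 26.5 CPM in APAP_PBS and 24.4 and 22.5 CPM in CTRL. Irf1, an early target of interferon gamma, had 20.8, 31.2 and 27.3 CPM in APAP_MSC, 15.3, 22.5 and 23.5 CPM in APAP_PBS and 13.9 and 23.3 CPM in CTRL. The groups overlapped for both genes. Irf1 was at 0.13 ± 0.27 (adjusted p = 0.81) in APAP_PBS and 0.50 ± 0.27 (adjusted p = 0.314) in APAP_MSC against CTRL. Irf7 was at 0.11 ± 0.19 in APAP_PBS (adjusted p = 0.772) and -0.02 ± 0.19 in APAP_MSC (adjusted p = 0.971). Stat2, a subunit of the ISRE-binding complex, was above both CTRL libraries in all 6 APAP libraries, at 0.25 ± 0.14 (adjusted p = 0.294) in APAP_PBS and 0.43 ± 0.14 (adjusted p = 0.112) in APAP_MSC. It passed in APAP_MSC without APAP_MSC replicate 2 (0.55, adjusted p = 0.0174) and with library size alone (0.62, adjusted p = 0.0391). Stat2, Dhx58 and Ifit2 were picked out after their values were seen.

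The second question was whether MSCs, given after APAP, changed these genes. In APAP_MSC against APAP_PBS, edgeR's quasi-likelihood test called 0 of the 33 genes higher and 0 lower, where 0% of all tested genes were higher and 0.00786% lower. The smallest adjusted p of the list was 0.718, and DESeq2 and limma on FPKM also called 0. At an unadjusted p under 0.05 there were 2, Igtp and Ifit1, where 6.62% of all genes had one. The log2 fold changes ran from -0.62 to 0.37, with 16 above and 17 below 0 and a median of -0.0009, beside -0.0061 over all genes. Without APAP_MSC replicate 2 the median of the list was -0.18, and without APAP_MSC replicate 3 it was 0.085. The groups did not overlap for 0 genes on the higher side and 1 on the lower side, where 6.81% and 7.04% of all genes did so. That gene was Ifit1.

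Ifit1 was lower in all 3 APAP_MSC libraries than in any APAP_PBS library, at -0.60 ± 0.27 (adjusted p = 0.75 by edgeR). The 95% interval of its log2 fold change ran from -1.20 to -0.01. Igtp was at 0.37 ± 0.14 (adjusted p = 0.718 by edgeR), and APAP_MSC replicate 1 and APAP_PBS replicate 3 were level at 24.4 CPM. Its interval ran from 0.06 to 0.68. Without APAP_MSC replicate 2 it was at 0.20 (adjusted p = 0.733), and summed with Irgm2 at 0.17 (adjusted p = 0.84).

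Of the genes called against CTRL, Igtp is given above. The log2 fold change of APAP_MSC against APAP_PBS was -0.17 ± 0.21 for Zbp1 (95% interval -0.63 to 0.30), 0.05 ± 0.13 for Irgm2 (-0.22 to 0.33), 0.02 ± 0.14 for Bst2 (-0.29 to 0.33) and 0.23 ± 0.23 for Ifit3 (-0.29 to 0.74). For 29 of the 33 genes the 95% interval lay within -1 and 1, that is, within a doubling or its inverse. The lowest bound was -1.79, for Oas2, and the highest 1.02, for Gbp2. The median width of an interval to either side was 0.48. The width differed by gene. With 3 libraries a group, a difference smaller than a gene's own width to either side could not be told from 0.

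**Figure D4:**
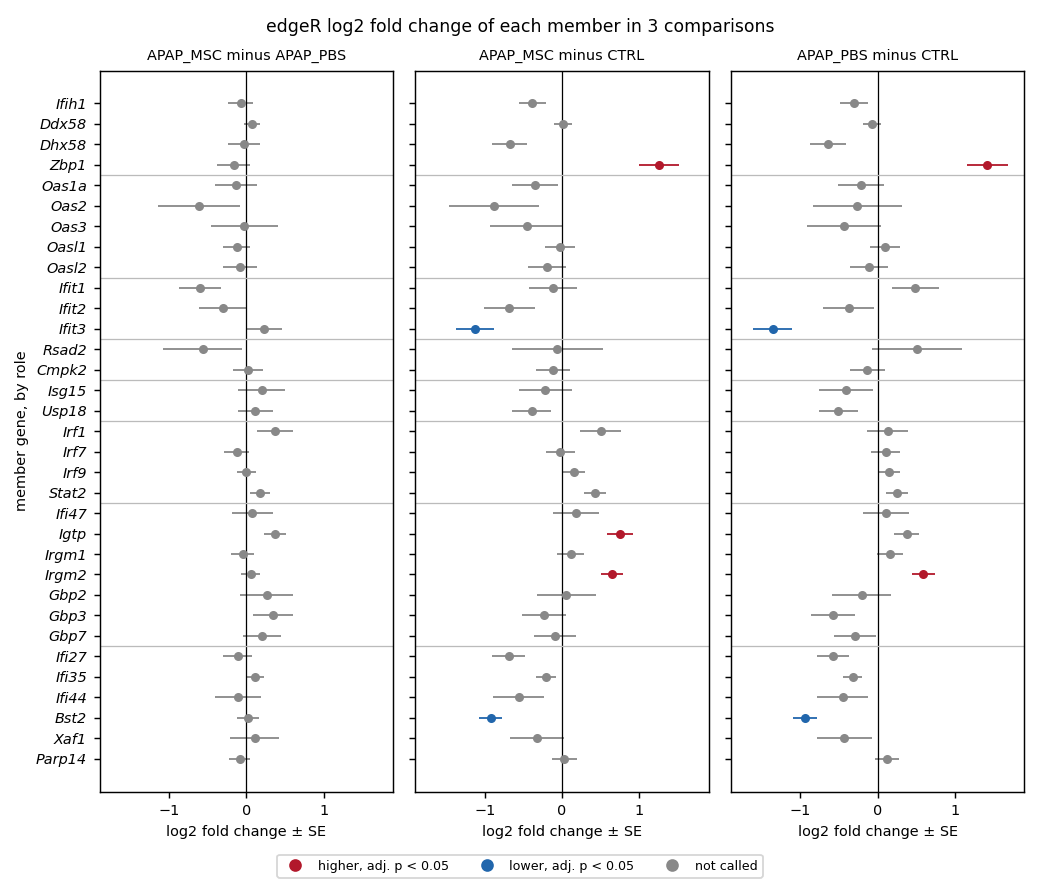
Log2 fold change ± SE by edgeR of each of the 33 genes, by role, in APAP_MSC minus APAP_PBS (left), APAP_MSC minus CTRL (middle) and APAP_PBS minus CTRL (right), with red for genes higher and blue for genes lower at an adjusted p under 0.05. The left panel has no coloured point and runs from -0.62 to 0.37, while Zbp1 and Irgm2 are red and Ifit3 and Bst2 blue in both other panels, and Igtp is red in the middle one.

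The genes differed between libraries of a group in a common direction. In APAP_MSC, replicate 2 had the highest level of its group for 26 of the 33 genes, where it did for 34.5% of all tested genes. In APAP_PBS, replicate 1 was highest for 21 of the 33 genes, against 33.6% of all genes. In CTRL, replicate 1 was the higher for 27 of the 33, against 48.5% of all genes. The median deviation of the 33 genes from the group mean, as log2(CPM + 0.5), was -0.12, 0.27 and -0.14 in APAP_MSC, 0.09, -0.09 and 0.03 in APAP_PBS and 0.11 and -0.11 in CTRL. The same deviation over all genes stayed within 0.01 of 0 in every library. The list's median difference of -0.0009 between APAP_MSC and APAP_PBS comes from 16 values above 0 and 17 below it. Nearly any spread between libraries would exceed it, so no conclusion is drawn from setting the 2 side by side.

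APAP_MSC replicate 2 was also the highest of its group for some other immune readouts, but not for all. Cxcl9, a chemokine induced by interferon gamma and named after its values were seen, had 1.57, 15.3 and 2.22 CPM in APAP_MSC, 4.30, 1.99 and 5.27 CPM in APAP_PBS and 11.4 and 9.35 CPM in CTRL. For Cxcl9 in APAP_PBS the highest library was replicate 3, not replicate 1. Cxcl10, another interferon-induced chemokine, had 0.992, 1.66 and 2.53 CPM in APAP_MSC, so replicate 3 was the highest. The summed neutrophil markers stood at 5.60, 4.21 and 3.50 CPM in APAP_MSC. Monocyte and macrophage markers summed there to 119, 164 and 169 CPM, and Kupffer cell markers to 160, 269 and 252 CPM. The summed markers of T and NK cells, 8 genes of which 3 were tested, stood at 0.467, 2.91 and 1.48 CPM in APAP_MSC, 1.53, 1.45 and 2.11 CPM in APAP_PBS and 1.92 and 3.67 CPM in CTRL. In APAP_PBS and CTRL the libraries highest for the list, replicate 1 in each, were not the highest in this sum. The part of these cells in the result was not tested.

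**Figure D5:**
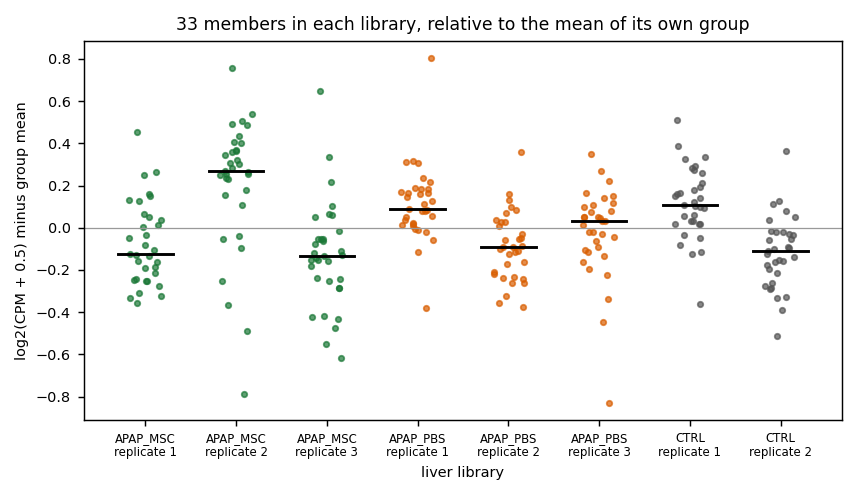
Log2(CPM + 0.5) of each of the 33 genes (points) minus the mean of its own group, by library, with a black line at the median of the 33 genes. The median is 0.27 in APAP_MSC replicate 2, against -0.12 and -0.14 in the other APAP_MSC libraries, and the medians of the APAP_PBS and CTRL libraries lie between -0.11 and 0.11.

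Upstream of the list, the interferon receptors held no call in any comparison, with 5 of 6 listed genes tested. Ifnar1, a chain of the type I receptor, had 38.1, 39.0 and 39.0 CPM in APAP_MSC, 32.8, 32.7 and 38.0 CPM in APAP_PBS and 36.4 and 35.4 CPM in CTRL. Ifnar2, its partner, had 44.7, 66.2 and 58.3 CPM in APAP_MSC, 50.8, 50.9 and 52.4 CPM in APAP_PBS and 46.4 and 51.6 CPM in CTRL. Ifngr1, of the interferon gamma receptor, had 16.7, 16.6 and 16.7 CPM in APAP_MSC, 19.4, 16.8 and 18.4 CPM in APAP_PBS and 18.6 and 15.7 CPM in CTRL. The groups overlapped or lay close for each, and none had an adjusted p under 0.477.

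Of 5 JAK kinases and STATs, 2 were higher in APAP_PBS than in CTRL, where 4.29% of all genes were, and 1 in APAP_MSC than in CTRL, where 2.52% were. Stat3, which carries the signal of interleukin-6 family cytokines, had 164, 143 and 163 CPM in APAP_MSC, 197, 167 and 196 CPM in APAP_PBS and 76.5 and 73.8 CPM in CTRL. Every APAP library was far above both CTRL libraries, by 1.31 ± 0.12 (adjusted p = 0.000192) in APAP_PBS and 1.06 ± 0.12 (adjusted p = 0.000968) in APAP_MSC. Jak2 was higher in APAP_PBS by 0.57 ± 0.15 (adjusted p = 0.0368).

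Among 7 tested inhibitors of interferon signalling, 2 were higher in APAP_PBS (4.29% of all genes) and 1 in APAP_MSC (2.52% of all genes) than in CTRL. Socs3, a feedback inhibitor of JAK kinases that Stat3 induces, had 14.9, 16.7 and 28.8 CPM in APAP_MSC, 38.6, 26.4 and 32.7 CPM in APAP_PBS and 4.91 and 3.10 CPM in CTRL. It was higher by 3.05 ± 0.36 (adjusted p = 0.00239) in APAP_PBS and 2.36 ± 0.36 (adjusted p = 0.00958) in APAP_MSC. In APAP_MSC against APAP_PBS it was at -0.68 ± 0.27 (adjusted p = 0.743), and the groups overlapped. Ptpn1, a phosphatase that acts on JAK kinases, was higher in APAP_PBS by 0.80 ± 0.18 (adjusted p = 0.0166).

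Of 15 sensors, adaptors and kinases that lead to interferon production, APAP_PBS had 2 higher and 1 lower against CTRL, where 10.3% of all genes were called. In APAP_MSC edgeR called none, and 4 had an unadjusted p under 0.05, against 21.7% of all genes. Sting1, the adaptor of cytosolic DNA sensing, had 2.33, 2.42 and 4.87 CPM in APAP_MSC, 4.92, 2.53 and 3.04 CPM in APAP_PBS and 1.21 and 1.18 CPM in CTRL. It was higher by 1.54 ± 0.43 (adjusted p = 0.0446) in APAP_PBS, against 1.44 ± 0.43 (adjusted p = 0.0761) in APAP_MSC. Irf8, a factor of macrophages and dendritic cells, was higher in APAP_PBS by 0.84 ± 0.23 (adjusted p = 0.0441). Irf5, a factor downstream of Toll-like receptors, was lower in APAP_PBS at -0.81 ± 0.22 (adjusted p = 0.0443). It had 6.71, 9.31 and 9.77 CPM in APAP_MSC, 7.97, 8.45 and 7.84 CPM in APAP_PBS and 17.9 and 10.6 CPM in CTRL.

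Of 30 further interferon-induced genes outside the list, APAP_PBS had 2 higher and 1 lower against CTRL, or 10% of the 30 against 10.3% of all genes. APAP_MSC had 2 higher, or 6.67% against 2.52% of all genes that were higher. Ifitm2, a membrane protein that blocks viral entry, had 140.4, 139 and 175 CPM in APAP_MSC, 132, 135 and 134 CPM in APAP_PBS and 92.9 and 88.0 CPM in CTRL. It was higher by 0.56 ± 0.12 (adjusted p = 0.0173) in APAP_PBS and 0.75 ± 0.12 (adjusted p = 0.00728) in APAP_MSC. Its relative Ifitm1 was higher by 1.25 ± 0.24 in APAP_PBS (adjusted p = 0.00871) and 1.12 ± 0.24 in APAP_MSC (adjusted p = 0.0222). Ube2l6, the enzyme that conjugates Isg15, was lower in APAP_PBS at -0.46 ± 0.11 (adjusted p = 0.0287). In APAP_MSC against APAP_PBS, no gene of these lists was called by edgeR. The counts at an unadjusted p under 0.05 were 1 for the kinases and STATs, 1 for the inhibitors, 2 for the sensors and adaptors, and 0 for the receptors and the further induced genes.

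Markers of other cells also differed between the groups. The summed neutrophil markers, 8 genes of which 5 were tested, stood at 3.50 to 5.60 CPM in APAP_MSC, 5.15 to 23.8 CPM in APAP_PBS and 2.21 to 2.92 CPM in CTRL. In APAP_PBS against CTRL 2 of them were higher, S100a8 and Retnlg, where 4.29% of all tested genes were higher. Ly6g had 1 count in 1 library and was at 0 in the other 7. The 8 monocyte and macrophage markers summed to 119 to 169 CPM in APAP_MSC, 149 to 256 CPM in APAP_PBS and 114 to 178 CPM in CTRL. Of these, 2, Ccr2 and Cd68, were higher in APAP_PBS than in CTRL, beside the same 4.29% of all genes. APAP_PBS replicate 1, the library with most genes of the list at their highest in its group, had the highest sum of both lists. The 5 Kupffer cell markers overlapped across groups, at 160 to 269 CPM in APAP_MSC, 161 to 266 CPM in APAP_PBS and 173 to 233 CPM in CTRL. Of the 5 stellate cell markers 1, Des, was higher in APAP_PBS than in CTRL, and of the 5 sinusoidal endothelial cell markers 0. Of the 6 B and plasma cell markers 1 was tested and not called. They summed to 0.992 to 1.57 CPM in APAP_MSC, 0.704 to 2.32 CPM in APAP_PBS and 2.26 to 2.85 CPM in CTRL. Zbp1, Irf8 and the GTPases are expressed in immune cells as well as in other liver cells, and the part of these cells in the higher calls was not tested. Of the 6 hepatocyte markers, 1, Ttr, was lower in APAP_PBS than in CTRL, where 5.97% of all genes were lower. By log2 fold change, 4 of the 6 were below 0 and 2 above it. Those above were Hnf4a at 0.40 ± 0.14 and Tat at 0.31 ± 0.28, neither of them called. The part of hepatocytes in the lower calls of Bst2 and Ifit3 was not tested.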

How the data were processed

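Liver mRNA from 8 libraries in 3 groups was analysed. Per the labels' protocols, RNA was extracted with Trizol, selected on oligo(dT) and made into libraries with a NEBNext Ultra kit; the strand is not stated. The submitters' processing notes name fastp 0.18.0, a read trimmer. Which aligner, quantifier, build and annotation were used is not given in the sources used here. The authors deposited estimated counts and FPKM values per Ensembl gene, per the file headers. Between 6.39% and 7.46% of the deposited expected counts per library were not whole, and all were rounded to whole numbers. The FPKM values, which the authors deposited beside the counts, were used to compare levels between genes and in alternatives, as log2(FPKM + 1) and log2(FPKM + 0.1), a scale that understates changes of low genes.

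Symbols came from GENCODE M21, which matched 22128 of the 22183 IDs; coordinates are those of GRCm38, and the authors' build may differ. Genes were filtered with filterByExpr (12722 left), scaled with TMM and tested with edgeR 4.0.16 in R 4.3.3 (robust glmQLFit and glmQLFTest), fitting all 8 libraries together with groups as coefficients. P-values were adjusted by Benjamini-Hochberg over all tested genes, and calls were made under 0.05. The SE of a log2 fold change is its size divided by the root of F. Motifs were searched on both strands with Python 3.11.15. The code was tested on simulated counts.

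Alternatives used DESeq2 1.42.0, limma 3.58.1, other scalings and filters, a replicate block, only the groups compared, and each library left out. Values of single genes under the alternatives were taken for members of the list only, so calls of pathway genes and markers were not checked in this way. Intervals and floors cover counting error or the spread between libraries only. The members and all lists were chosen with earlier results of these data known. Named in full are the members called in any comparison and the 2 of each role with the highest mean FPKM; of the pathway lists, the called genes, Ifnar1, Ifnar2, Ifngr1, Ifng and Ifnb1 are named. Other members are given by range, with those picked out later said to be so. A result on 1 gene is not reported here.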

Additional observations from a re-analysis of the deposited data

How the results depend on the processing

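There were 17 alternatives, and the 2 sums of near copies were added after the data were seen. Over all of these, 135 of 158 values of called genes kept their call, 23 lost it and none changed sign. Of 1528 values of genes not called, 10 became calls and 123 took the other sign. In APAP_MSC against APAP_PBS, 0 genes of the list were called under every alternative, and the median ran from -0.18 to 0.085 when 1 library was left out. For APAP_PBS against CTRL, 1 gene instead of 2 was higher with a replicate block (Irgm2 was lost), and leaving out 1 library gave 0 to 2 higher and 1 to 3 lower. The median of -0.21 became 0.038 with library size alone, 0.025 on log2(FPKM + 1) and 0.035 on log2(FPKM + 0.1), scalings that raise all genes, and ran from -0.32 to -0.029 with 1 library left out. For APAP_MSC against CTRL, 1 gene instead of 3 was higher and 1 instead of 2 lower with the replicate block (Irgm2, Igtp and Ifit3 were lost), and 0 were higher with only the groups compared. Leaving out 1 library gave 0 to 4 higher and 0 to 3 lower, and medians from -0.35 to -0.0048; library size alone gave 0.074. The cause of each lost call was not tested.

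Over all genes, the counts in APAP_PBS against CTRL (546 higher, 760 lower) ran from 175 to 1620 higher and from 303 to 1089 lower. In APAP_MSC against CTRL (321 and 422) they ran from 119 to 755 and from 141 to 733. In APAP_MSC against APAP_PBS (0 and 1), DESeq2 called 17 higher and 25 lower. Same-numbered APAP_MSC and APAP_PBS libraries did not deviate together (r = 0.006, -0.020 and -0.073), nor did those of APAP_PBS and CTRL (-0.142 and -0.053); for APAP_MSC and CTRL r was 0.190 and 0.086. Not every pair was over 0.1, so the numbers were not taken to pair the libraries. Depth limits the low genes, such as Oas2 and Oas3, and 2 CTRL libraries limit every comparison with them. The stricter filter left 31 genes of the list.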
